A study of Mus musculus with 48 samples.

Results

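The cell cycle and replication module is a set of 37 genes, followed here by gene symbol through 48 RNA sequencing libraries of myeloid cells sorted from mouse lymph nodes. They are 37 of the 55487 genes in each table, and comprise 24 mitotic genes (Mki67, Top2a, Ccnb1, Ccnb2, Ccna2, Cdk1, Bub1, Bub1b, Aurka, Aurkb, Plk1, Birc5, Cenpa, Cenpe, Cenpf, Kif11, Kif20a, Kif23, Tpx2, Nusap1, Ube2c, Cdc20, Cdca8 and Stmn1) and 13 S phase genes (Mcm2 to Mcm7, Pcna, Rrm1, Rrm2, Tyms, Cdc6, Cdt1 and Gins2). All 37 had enough counts to be tested in every model. The sorted cells were of 4 types: migratory dendritic cells (mDC), which carry antigen into the node from the tissue, resident dendritic cells (rDC), and macrophages of the medullary sinus, called MSM below, and of the subcapsular sinus, called SSM. For each cell type there were 4 groups of 3 libraries, from tumor-draining lymph nodes (TDLN) of cisplatin-treated mice, TDLN of mice given PBS, lymph nodes labelled without the tumor-draining term (LN) with cisplatin, and LN with PBS, which makes 16 groups. All mice were wild type, and the series describes tumor-bearing animals. Cisplatin is a platinum drug that crosslinks DNA. Strain, age, tumor, dose, time after treatment and the number of mice behind a library were not given in the sources used here, so the p-values measure only the spread between libraries, which may be technical.

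The 2 lists follow the cell cycle. In G1 phase Cdc6 and Cdt1 load the Mcm2 to Mcm7 helicase at replication origins, Gins2 is a part of the complex that activates this helicase, Pcna is the sliding clamp of the polymerases, and ribonucleotide reductase (Rrm1, Rrm2) and thymidylate synthase (Tyms) supply nucleotides. The mitotic genes encode the cyclins and kinases that drive division (Ccna2, Ccnb1, Ccnb2, Cdk1, Plk1, Aurka, Aurkb), the spindle checkpoint (Bub1, Bub1b), spindle motors and microtubule proteins (Kif11, Kif20a, Kif23, Tpx2, Nusap1, Stmn1), centromere proteins (Cenpa, Cenpe, Cenpf), the chromosomal passenger complex (Birc5, Cdca8, Aurkb) and the ubiquitin machinery that ends mitosis (Ube2c, Cdc20). Many S phase genes are known targets of E2F transcription factors. Many mitotic genes carry a cell cycle homology region (CHR), through which the DREAM complex, B-Myb and FoxM1 act. Many of them also carry CCAAT boxes. Migratory dendritic cells are known as cells that have largely left the cycle, and macrophages of the node sinuses are long-lived.

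The promoters of both lists are shown because the lists are read by different known elements. RefSeq promoters (GRCm38.p6, 250 bases before to 50 after the start site) were found for 30 of the 37 members. A CHR (TTTGAA or TTCGAA, either strand) was in the promoter of 15 of 19 mitotic members and of 2 of 11 S phase members (Mcm2 and Mcm7), against 21.7% of all 27025 genes with a promoter. An E2F word (TTTCCCGC, TTTGGCGC, TTTCGCGC or TTTGCCGC, either strand) was in 1 of 19 mitotic members (Cdk1) and in 6 of 11 S phase members (Mcm3, Mcm5, Mcm6, Mcm7, Cdc6 and Cdt1), against 2.6% of all genes. A CCAAT box (CCAAT, either strand) was in 17 of 19 mitotic and 8 of 11 S phase members, against 41.1% of all genes. These are letter matches, and no binding was measured. In the promoters below, each written in the direction of its gene, capitals mark the CHR in the mitotic genes and the E2F words in the S phase genes.
Ccnb2, cyclin B2 (chr9:70421505-70421804, minus strand): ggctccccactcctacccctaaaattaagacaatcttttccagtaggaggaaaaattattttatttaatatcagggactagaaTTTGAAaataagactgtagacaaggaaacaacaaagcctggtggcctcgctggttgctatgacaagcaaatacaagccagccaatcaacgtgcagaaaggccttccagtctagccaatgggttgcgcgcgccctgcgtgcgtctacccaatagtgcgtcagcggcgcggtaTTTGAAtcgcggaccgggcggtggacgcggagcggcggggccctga
Ube2c, the ubiquitin-conjugating enzyme of the anaphase-promoting complex (chr2:164769679-164769978, plus strand): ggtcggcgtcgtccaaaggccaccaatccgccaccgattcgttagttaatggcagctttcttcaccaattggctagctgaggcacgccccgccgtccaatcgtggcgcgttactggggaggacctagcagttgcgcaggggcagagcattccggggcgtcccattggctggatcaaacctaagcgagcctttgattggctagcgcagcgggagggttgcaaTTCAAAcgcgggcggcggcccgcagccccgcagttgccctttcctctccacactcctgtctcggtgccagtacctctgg
Top2a, topoisomerase II alpha (chr11:99024140-99024439, minus strand): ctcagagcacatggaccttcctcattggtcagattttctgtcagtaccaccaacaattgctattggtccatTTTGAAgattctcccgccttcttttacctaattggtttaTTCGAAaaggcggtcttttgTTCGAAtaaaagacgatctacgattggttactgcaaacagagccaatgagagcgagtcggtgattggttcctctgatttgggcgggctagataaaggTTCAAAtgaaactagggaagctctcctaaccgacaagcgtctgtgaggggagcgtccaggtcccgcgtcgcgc
Mki67, the Ki-67 protein that coats mitotic chromosomes (chr7:135716330-135716629, minus strand): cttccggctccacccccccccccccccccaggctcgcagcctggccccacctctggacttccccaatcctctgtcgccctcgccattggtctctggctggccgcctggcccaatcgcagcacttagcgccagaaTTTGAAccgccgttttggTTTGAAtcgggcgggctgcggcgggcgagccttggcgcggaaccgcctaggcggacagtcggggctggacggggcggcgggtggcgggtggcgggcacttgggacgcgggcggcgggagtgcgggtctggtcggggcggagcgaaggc
Mcm5, a helicase subunit (chr8:75109259-75109558, plus strand): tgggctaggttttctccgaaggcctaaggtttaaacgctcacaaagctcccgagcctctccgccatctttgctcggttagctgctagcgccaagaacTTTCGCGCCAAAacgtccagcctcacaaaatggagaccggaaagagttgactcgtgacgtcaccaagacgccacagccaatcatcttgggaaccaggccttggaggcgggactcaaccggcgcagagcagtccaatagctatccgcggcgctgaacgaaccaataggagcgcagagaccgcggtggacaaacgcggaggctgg
Cdc6, the helicase loader (chr11:98907901-98908200, plus strand): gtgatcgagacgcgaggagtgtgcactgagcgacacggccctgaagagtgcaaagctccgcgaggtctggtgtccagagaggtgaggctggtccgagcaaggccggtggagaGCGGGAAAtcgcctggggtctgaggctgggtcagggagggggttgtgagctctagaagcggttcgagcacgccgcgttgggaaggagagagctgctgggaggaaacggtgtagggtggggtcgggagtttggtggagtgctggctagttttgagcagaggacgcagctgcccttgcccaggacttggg
The Mki67 promoter held 2 CHR words and 3 CCAAT boxes, like those of the other mitotic genes shown, although its transcript level stood apart from theirs in the dendritic cells. The 2 E2F words of Mcm5 overlap each other, and the Cdc6 promoter held an E2F word and no CCAAT box.

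Macrophage libraries held 6456456 to 10434248 counts. Of the dendritic cell libraries, the 6 of mDC from TDLN with PBS and rDC from LN with PBS held 10733509 to 15481059 counts and the other 18 held 2002713 to 3842097, so each comparison that rests on a deep group was also made with those libraries thinned to 3000000 counts. Thinning evens out depth only. Any other trait of the deep libraries cannot be told apart from their node, treatment or cell type. The dendritic cell tables name their columns Tumor and WT, read here as TDLN and LN by elimination, so every TDLN and LN value of these cells rests on that reading. Among the macrophages, 4 libraries resembled the other macrophage label: MSM 2 and SSM 2 of LN with PBS, and MSM 1 and SSM 3 of TDLN with cisplatin. Each correlated at 0.99 or more with a library of the other label and at no more than 0.751 with its own group, over genes with a mean log2 level of at least 4. Counts of members called in macrophages are given with and without them. The mDC label fitted its markers: Ccr7, the receptor that guides these cells into the node, ran from 10767 to 14651 counts scaled to a common library size (CPM) in mDC against 636 to 1156 in rDC. The 3 libraries labelled MSM of LN with cisplatin went against a macrophage label, with 1740 to 1821 CPM summed over 12 macrophage genes where every other macrophage library had at least 7968, Adgre1 at 3.42 to 3.93 CPM, Siglec1 at 0 to 0.286 CPM, and 6093 to 6299 CPM over 10 dendritic cell genes. Over 8 neutrophil genes, MSM of TDLN with PBS had the highest sums of all libraries, 7608 to 7827 CPM. These are bulk libraries, in which fewer cells of a type and less RNA per cell cannot be told apart.

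Summed over the list, S phase transcripts exceeded mitotic ones in all 48 libraries. In dendritic cells the S phase sum ran from 572 CPM in an mDC library of LN with PBS to 940 CPM in an rDC library of TDLN with PBS, and the mitotic sum from 239 CPM to 569 CPM. In macrophages both sums reached further, the S phase sum from 632 to 1417 CPM and the mitotic sum from 260 to 718 CPM. The highest S phase sums (1388 to 1417 CPM) were those of the libraries labelled MSM of LN with cisplatin, whose mitotic sums (427 to 443 CPM) lay in the middle of the range, so the lists did not keep one order over the groups. The ratio of the S phase to the mitotic sum was lowest in SSM of TDLN with cisplatin (1.53 ± 0.25) and highest in MSM of LN with cisplatin (3.22 ± 0.080, SD, n = 3 each).

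**Figure D1:**
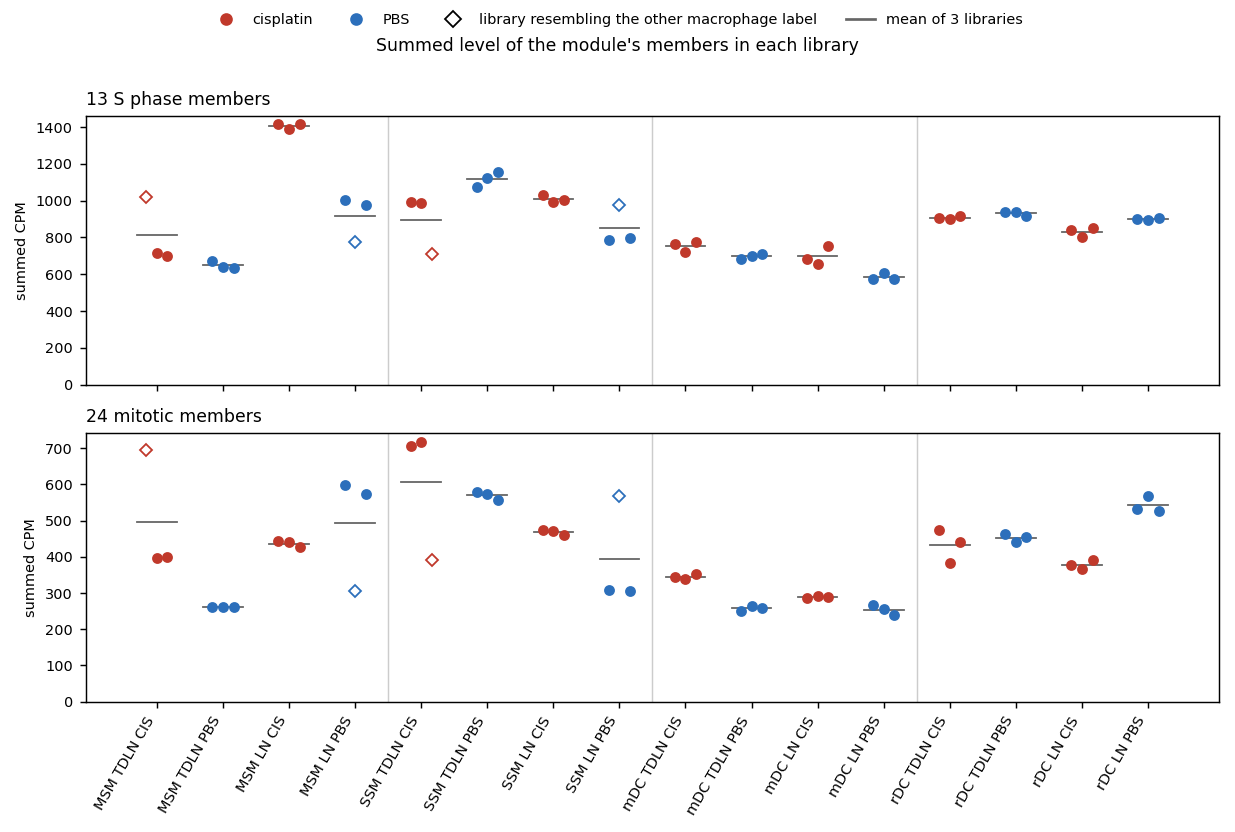
Summed CPM of the 13 S phase members and of the 24 mitotic members in each of the 48 libraries, by group, with 1 point per library, a line at the group mean and open diamonds for the 4 libraries that resembled the other label. The libraries labelled MSM of LN with cisplatin have the highest S phase sums (1388 to 1417 CPM), and the diamonds lie apart from the other libraries of their groups.

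With PBS, migratory dendritic cells held less of nearly all mitotic transcripts than resident ones, and Mki67 was higher in them. In TDLN with PBS, 22 of 24 mitotic members were lower and 1 (Mki67) was higher in mDC, and 6 of 13 S phase members were lower and 2 (Tyms and Gins2) higher. Of all genes tested in this comparison, 35.4% were lower and 37% higher. The median log2 fold change was −1.51 over the mitotic list and −0.18 over the S phase list, against 0.02 over all genes. In LN with PBS, 21 mitotic members were lower and 1 higher, and 10 S phase members were lower, where 35% of all genes were lower and 31.5% higher. With cisplatin 6 mitotic members were lower and 1 (Mki67) higher in TDLN (28.6% and 27.5% of all genes), and 8 were lower and 2 (Mki67 and Cdca8) higher in LN (28.7% and 26.2% of all genes). As shares of the list, the lower counts with cisplatin lay near those of all genes. The S phase list gave 7 lower and 2 higher in TDLN, and 6 lower and 2 higher in LN, with cisplatin. These groups differ in depth. With the deep libraries thinned, 21 mitotic members were lower and 1 higher and 8 S phase members lower and 1 higher in TDLN with PBS, beside 34.5% and 32.1% of all genes. In LN with PBS these counts were 20 and 1 for the mitotic list and 10 and none for the S phase list, beside 32.8% and 29.8%. With cisplatin they were 5 and 1, and 7 and 2, in TDLN (28.7% and 27.3%), and 8 and 2, and 7 and 1, in LN (28.7% and 26.1%).

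Kif23, a kinesin of the cleavage furrow, had 4.59, 4.19 and 4.16 CPM in mDC of TDLN with PBS, against 26.8, 18.8 and 21.4 CPM in rDC. The groups did not overlap, and the log2 fold change was −2.4 ± 0.18 (adjusted p = 7.07e-13), the error being a standard error and the p-value that of edgeR's quasi-likelihood test adjusted over all genes, as throughout. The same gene differed by −2.62 ± 0.24 (adjusted p = 8.22e-11) in LN with PBS, by −1.69 ± 0.22 (adjusted p = 1.58e-07) in LN with cisplatin and by −1.41 ± 0.21 (adjusted p = 1.04e-06) in TDLN with cisplatin. Cyclin A2 (Ccna2), which drives S and G2 phase, had 3.86, 5.69 and 5.47 CPM in mDC of TDLN with PBS, against 21.2, 20.8 and 21.4 CPM in rDC. All 3 mDC libraries were below all 3 rDC libraries (−2.07 ± 0.22, adjusted p = 1.56e-09). Ube2c was at 1.67, 1.74 and 2.0 CPM in these mDC, against 9.32, 7.91 and 12.7 CPM in rDC (−2.46 ± 0.28, adjusted p = 6.02e-09), and Ccnb1 and Ccnb2 differed by −2.06 ± 0.21 (adjusted p = 9.47e-10) and −1.96 ± 0.24 (adjusted p = 3.33e-08). In LN with PBS, Kif11, the motor that pushes spindle poles apart, differed by −2.1 ± 0.26 (adjusted p = 3.47e-08), and Stmn1, which takes microtubules apart, by −1.97 ± 0.15 (adjusted p = 2.98e-12).

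Cenpa, the histone H3 variant of centromeres, was the strongest difference in LN and also set the nodes apart within rDC. It had 17.5, 11.1 and 16.7 CPM in mDC of LN with PBS, against 105, 119.5 and 100.4 CPM in rDC. All mDC libraries, of either node and treatment, lay between 11.1 and 21.2 CPM, and no rDC library was below 52.2 CPM. The difference was −2.8 ± 0.14 (adjusted p = 2.25e-16) in LN with PBS, −2.7 ± 0.14 (adjusted p = 5.31e-16) in LN with cisplatin and −1.66 ± 0.14 (adjusted p = 3.04e-11) in TDLN with cisplatin. Within rDC, Cenpa had 61.5, 61.6 and 60.7 CPM in TDLN with PBS, and so lay below every rDC library of LN with PBS (−0.75 ± 0.10, adjusted p = 4.94e-05). With cisplatin it was again lower in TDLN, at 69.1, 52.2 and 64.6 CPM, against 97.6, 88.7 and 101 CPM in LN (−0.64 ± 0.11, adjusted p = 0.00053). Within rDC, Cenpa was thus lower in TDLN under both treatments.

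Among the S phase members, Cdc6, Cdt1 and Rrm2 were lower in mDC in all 4 settings. Cdc6 had 1.25, 1.5 and 1.39 CPM in mDC of TDLN with PBS, against 6.52, 11.9 and 9.53 CPM in rDC, with no overlap (−2.71 ± 0.27, adjusted p = 6.41e-10). Rrm2, the subunit of ribonucleotide reductase that is made in S phase, had 6.57, 7.51 and 5.16 CPM in mDC, against 31, 34.6 and 29.8 CPM in rDC (−2.32 ± 0.16, adjusted p = 1.40e-13). It was lower in mDC in the other settings too, by −2.39 ± 0.19 (adjusted p = 6.22e-12) in LN with PBS, −1.42 ± 0.18 (adjusted p = 1.02e-07) in LN with cisplatin and −1.33 ± 0.17 (adjusted p = 1.14e-07) in TDLN with cisplatin. Cdt1, the partner of Cdc6, was lower in mDC in all 4 settings, from −1.69 ± 0.14 (adjusted p = 2.38e-11) in LN with cisplatin to −0.98 ± 0.14 (adjusted p = 8.62e-07) in TDLN with cisplatin, where the value without rDC library 2 was −0.65. The helicase subunits Mcm2 and Mcm5 differed less, by −1.29 ± 0.10 (adjusted p = 5.90e-12) and −1.04 ± 0.11 (adjusted p = 2.84e-09) in TDLN with PBS, and by −1.13 ± 0.12 (adjusted p = 3.07e-09) and −0.83 ± 0.13 (adjusted p = 1.71e-06) in LN with PBS. Another subunit, Mcm3, went the other way with cisplatin, and was called higher in mDC in TDLN and in LN. In LN with cisplatin it was at 138, 134 and 146 CPM in mDC, against 94.5, 83.6 and 94.3 CPM in rDC (0.61 ± 0.078, adjusted p = 1.12e-07). Gins2 was higher in mDC of TDLN, at 33.7, 31 and 35.6 CPM with PBS, against 14, 14.8 and 25.4 CPM in rDC. The log2 fold change was 0.88 ± 0.16 (adjusted p = 1.77e-05), or 0.59 with the deep libraries thinned, and 0.58 ± 0.18 (adjusted p = 0.00743) with cisplatin. Mcm2 and Mcm7 were also lower in mDC in all 4 settings, while Mcm4 and Mcm6 were lower in LN with PBS only, with all counts used. Tyms was called higher in TDLN with PBS and in LN with cisplatin, but in neither with the deep libraries thinned. By the deposited TPM (scaled by transcript length), Tyms was not higher in mDC in either setting. It averaged 21.9 ± 3.31 in mDC against 29.0 ± 2.78 in rDC in TDLN with PBS (SD, n = 3 each). In LN with cisplatin it averaged 24.7 in both.

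**Figure D2:**
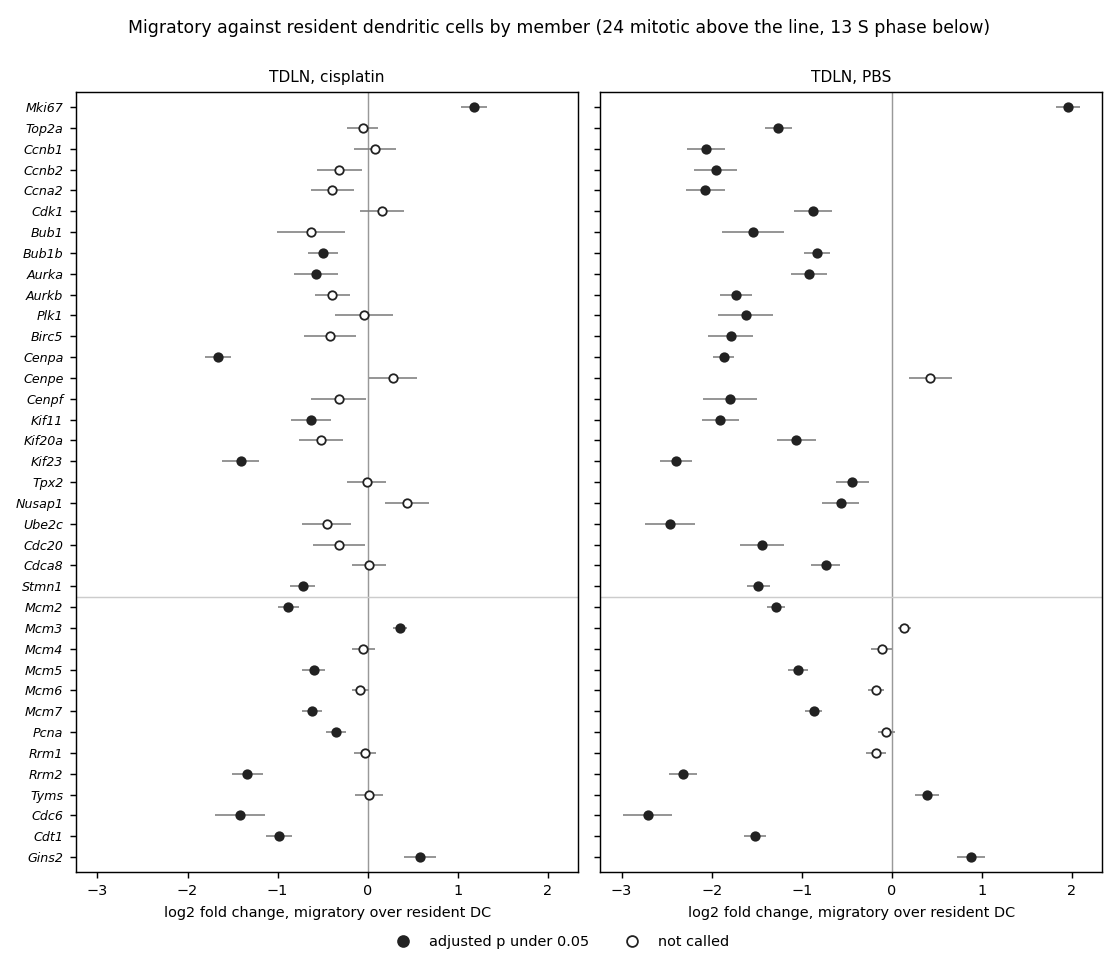
Log2 fold change of mDC over rDC for each of the 37 members in TDLN with cisplatin and in TDLN with PBS, with bars of 1 standard error and filled points where the adjusted p was under 0.05. Mki67 lies on the positive side in both (1.18 with cisplatin and 1.95 with PBS), while Kif23, Rrm2, Cdc6 and Cdt1 lie on the negative side in both.

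Mki67, in wide use as a marker of cycling cells, was higher in mDC than in rDC in each setting. In TDLN with PBS it had 92.6, 91 and 86.2 CPM in mDC, against 26.6, 16.5 and 24.8 CPM in rDC (1.95 ± 0.13, adjusted p = 1.09e-13). In LN with PBS it had 72.5, 87.7 and 74 CPM in mDC, against 21.3, 21.6 and 23.4 CPM in rDC (1.82 ± 0.13, adjusted p = 3.49e-13). No mDC library was below 52.0 CPM and no rDC library was above 27.0 CPM. With cisplatin the difference was 2.32 ± 0.15 (adjusted p = 1.04e-13) in LN and 1.18 ± 0.14 (adjusted p = 4.31e-08) in TDLN. Per unit of transcript length, the deposited TPM (scaled by transcript length) of Mki67 averaged 12.2 ± 0.41 in mDC of TDLN with PBS (SD, n = 3), where Cenpf stood at 0.58 and Cdc6 at 0.85, while Pcna (92.2), Mcm3 (84.6) and Mcm6 (56.6) were the most abundant members. In rDC of TDLN with PBS the TPM of Mki67 averaged 6.31 ± 3.73. With cisplatin in TDLN it averaged 8.14 ± 0.55 in mDC, against 5.71 ± 1.96 in rDC. In LN it averaged 10.6 in mDC against 5.05 in rDC with PBS, and 9.70 against 3.10 with cisplatin. The mean was thus higher in mDC in each setting, by a smaller factor than in CPM. In rDC of LN with PBS the most abundant members by TPM were Stmn1 (122), Cenpa and Pcna (both 92.1).

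Mki67 was also the mitotic member that ran against the others over the dendritic cell groups. Over the 8 group means, on a log2 scale with 0.5 CPM added, it correlated at r = −0.885 with the sum of the other 23 mitotic members, while those other members correlated with their own remaining sum at 0.287 to 0.981. These values describe 8 groups that share libraries, depth and cell type, and no p-value is given. In mDC of TDLN with PBS the other 23 members summed to 158 to 173 CPM, and in mDC of LN with PBS to 165 to 196 CPM, beside the highest Mki67 levels. In rDC of LN with PBS they summed to 502 to 547 CPM, beside 21.3 to 23.4 CPM of Mki67. Mki67 made up 33.3% to 37% of the mitotic sum in mDC of TDLN with PBS, and 3.81% to 4.46% in rDC of LN with PBS, so a mitotic sum that includes it hides part of the difference between the cell types. Gins2 (−0.710), Mcm3 (−0.453) and Tyms (−0.233) were the S phase members with a negative correlation with their list.

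**Figure D3:**
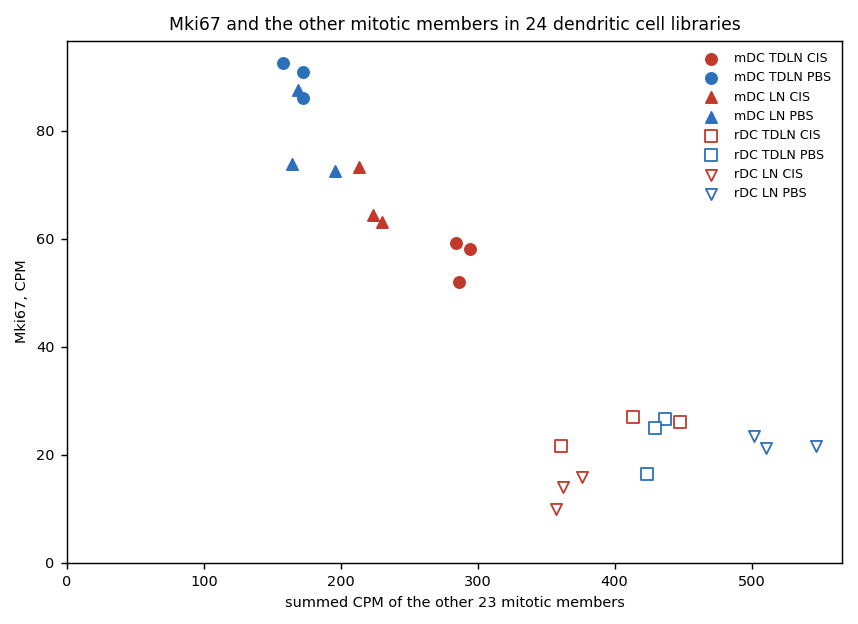
Mki67 level against the summed level of the other 23 mitotic members in the 24 dendritic cell libraries, both in CPM, with 1 point per library. The mDC libraries lie at 52.0 to 92.6 CPM of Mki67 and at 158 to 294 CPM of the others, and the rDC libraries at 9.92 to 27.0 CPM and at 357 to 547 CPM.

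Of 7 CDK inhibitors, which brake the cycle, 5 could be tested. In TDLN with PBS 3 were higher and 1 lower in mDC, beside 37% and 35.4% of all genes. In LN with PBS 2 were higher and 2 lower, beside 31.5% and 35%. With cisplatin 3 were higher and 2 lower in TDLN (27.5% and 28.6% of all genes). In LN with cisplatin 2 were higher and 1 lower (26.2% and 28.7%). Cdkn1a, the p21 inhibitor of cyclin-dependent kinases, averaged 1158 ± 61.2 CPM in mDC of TDLN with PBS, against 43.1 ± 4.51 CPM in rDC (SD, n = 3 each; log2 fold change 4.74 ± 0.11, adjusted p = 2.71e-24). The difference was 3.87 ± 0.10 (adjusted p = 2.45e-23) in LN with PBS and 3.59 ± 0.11 (adjusted p = 9.52e-22) in TDLN with cisplatin. Cdkn2b, the p15 inhibitor, averaged 128 ± 6.44 CPM in these mDC, against 1.33 ± 1.04 CPM in rDC (6.68 ± 0.23, adjusted p = 1.03e-20). Foxm1, the activator of mitotic genes, averaged 3.77 ± 0.365 CPM in mDC, against 26.8 ± 2.63 CPM in rDC (−2.82 ± 0.18, adjusted p = 2.05e-14). Gins3, a partner of Gins2 in the helicase complex, averaged 78.3 ± 5.38 CPM in mDC, against 6.42 ± 2.18 CPM in rDC (3.56 ± 0.18, adjusted p = 6.99e-17), so that both of these GINS genes were higher in mDC. Of the wider lists in TDLN with PBS, 9 of 13 other kinesin and cytokinesis genes were lower in mDC and none higher. Of 24 replication fork genes, 12 were lower and 6 higher, and of 15 E2F, DREAM and B-Myb regulators, 7 were lower and 5 higher. These counts stand beside 35.4% of all genes lower and 37% higher. Other cell types were not equally represented in the sorts: 8 B cell genes summed to 289.5 to 318 CPM in mDC of TDLN with PBS, against 1913 to 2007 CPM in rDC. The 6 plasmacytoid dendritic cell genes summed to 153 to 159 CPM in those mDC, against 3743 to 3961 CPM in rDC. Their part in the difference was not tested.

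With cisplatin, mDC of tumor-draining nodes carried more of most mitotic transcripts and less Mki67. Of the 24 mitotic members, 19 rose and 1 (Mki67) fell, and 8 of 13 S phase members rose and none fell, where 14.1% of all genes rose and 13.2% fell. The median log2 fold change was 0.96 over the mitotic list and 0.28 over the S phase list, against −0.01 over all genes. The PBS libraries of this comparison were the deep ones, and with those thinned 12 mitotic members rose, 1 fell and 8 S phase members rose, beside 10.5% and 9.57% of all genes. Apart from depth, any other trait of the deep libraries cannot be told apart from the treatment here. Without the low-count filter, which also shifted the median of all genes, 13 members rose and 3 fell. With each library left out in turn, 12 of the 19 mitotic rises, the fall of Mki67 and 4 of the 8 S phase rises stayed past the threshold every time.

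Ube2c had 5.48, 9.89 and 8.2 CPM in mDC of TDLN with cisplatin, against 1.67, 1.74 and 2.0 CPM with PBS. The groups did not overlap (log2 fold change 2.24 ± 0.33, adjusted p = 2.53e-05). Cyclin B2 (Ccnb2) had 12.4, 6.96 and 8.2 CPM with cisplatin, against 2.61, 2.92 and 2.54 CPM with PBS. Its partner cyclin Ccnb1 had 9.49, 9.15 and 13 CPM, against 2.29, 4.35 and 3.85 CPM. Both cyclins, which activate Cdk1 at the entry into mitosis, were higher in every cisplatin library, by 1.9 ± 0.28 (adjusted p = 2.51e-05) and 1.7 ± 0.27 (adjusted p = 5.98e-05). Plk1, the Polo kinase of mitotic entry, had 5.11, 9.15 and 8.57 CPM with cisplatin, against 1.36, 2.45 and 3.47 CPM with PBS (1.74 ± 0.35, adjusted p = 0.000666). Cenpf, a kinetochore protein, had 5.48, 9.15 and 4.1 CPM, against 1.98, 1.58 and 1.93 CPM (1.9 ± 0.35, adjusted p = 0.000293). All of these levels were low beside that of Mki67. Mki67 was at 59.1, 52 and 58.1 CPM with cisplatin, against 92.6, 91 and 86.2 CPM with PBS, and its log2 fold change was −0.54 ± 0.085 (adjusted p = 6.16e-05). All 3 cisplatin libraries were below all 3 PBS libraries, opposite to the other members that were called.

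Of the S phase members in the same cells, Cdc6 had 4.02, 4.03 and 6.34 CPM with cisplatin, against 1.25, 1.5 and 1.39 CPM with PBS (1.9 ± 0.37, adjusted p = 0.000476). Rrm2 had 13.9, 13.5 and 16.4 CPM with cisplatin, against 6.57, 7.51 and 5.16 CPM with PBS (1.32 ± 0.20, adjusted p = 3.84e-05). Both were higher in each cisplatin library, and the other S phase members that rose were Cdt1 and the helicase subunits Mcm2, Mcm3, Mcm5, Mcm6 and Mcm7. Around the members, 5 of 8 G1/S cyclins and kinases rose, among them cyclin D2 (Ccnd2, 1.49 ± 0.13, adjusted p = 2.53e-08), and 6 of 12 other kinesin and cytokinesis genes rose, among them Anln, a scaffold of the contractile ring (1.99 ± 0.36, adjusted p = 0.000237), and the kinesin Kif18b (1.94 ± 0.36, adjusted p = 0.000309). Foxm1 rose by 1.33 ± 0.27 (adjusted p = 0.000651), the replication initiation factor Mcm10 by 1.64 ± 0.26 (adjusted p = 6.28e-05), and Uhrf1, which reads hemimethylated DNA behind the fork, by 1.05 ± 0.081 (adjusted p = 2.38e-09). Of 5 CDK inhibitors 2 fell, and Cdkn1a averaged 724 ± 17.1 CPM with cisplatin, against 1158 ± 61.2 CPM with PBS (−0.54 ± 0.064, adjusted p = 1.52e-06). The counts of these wider lists stand beside 14.1% of all genes that rose and 13.2% that fell.

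Marker genes moved with these groups. The 8 B cell genes summed to 457 to 472 CPM in mDC of TDLN with cisplatin, against 289.5 to 318 CPM with PBS. The 8 germinal center B cell genes summed to 281 to 300.4 CPM with cisplatin, against 277 to 282 CPM with PBS, and did not move one way. Mef2b ran from 9.52 to 13.4 CPM with cisplatin, against 2.00 to 3.65 CPM with PBS, and S1pr2 from 33.7 to 37.3 CPM, against 16.3 to 22 CPM, while Fas ran from 101 to 112 CPM, against 121 to 128 CPM, and Bcl6 from 104 to 109.6 CPM, against 113 to 114 CPM. The 10 dendritic cell genes summed to 26420.1 to 28093 CPM with cisplatin, against 33261 to 34098 CPM with PBS. The T cell genes were lower with cisplatin (116 to 134 against 142 to 151 CPM over 8 genes). The part of these cells in the mitotic rise was not tested.

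**Figure D4:**
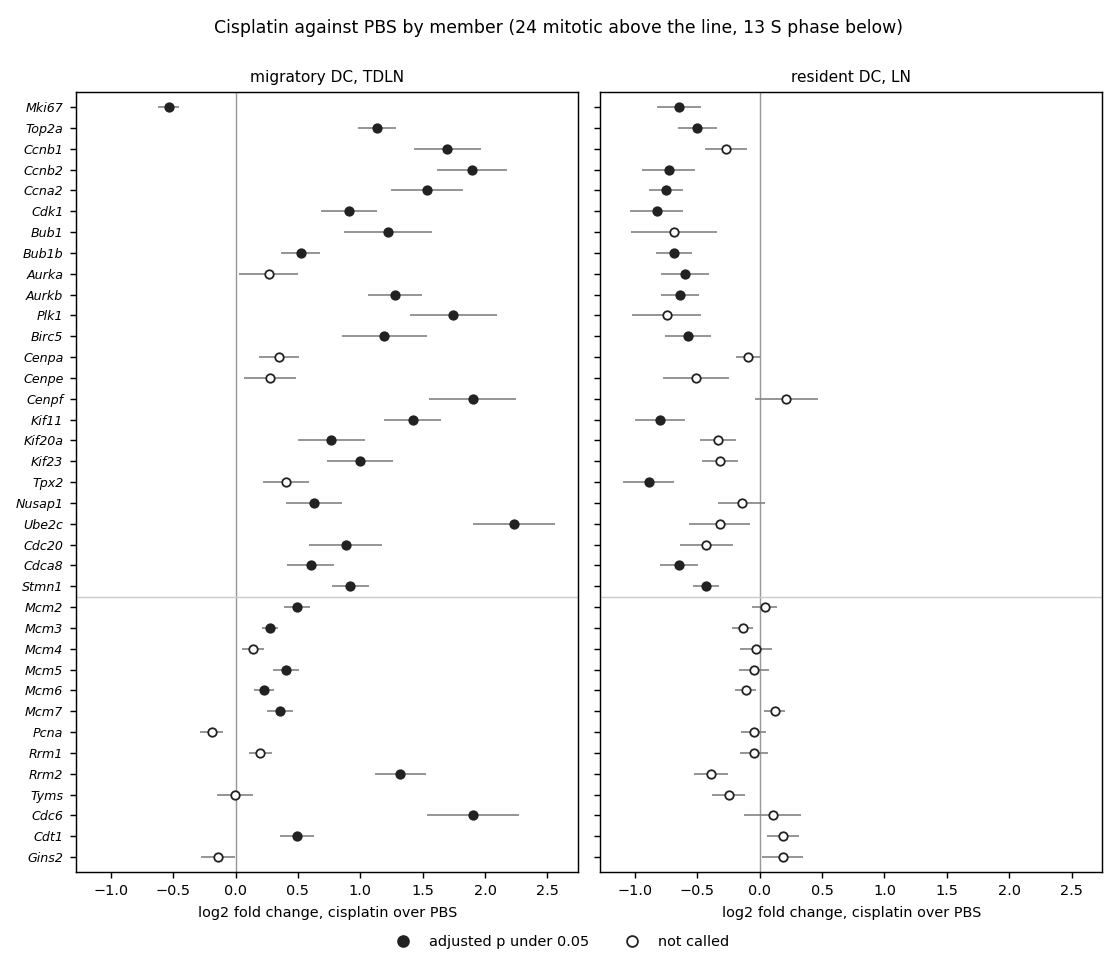
Log2 fold change of cisplatin over PBS for each member in mDC of TDLN and in rDC of LN, with bars of 1 standard error and filled points where the adjusted p was under 0.05. In mDC of TDLN the 19 mitotic members that rose lie on the positive side and Mki67 at −0.54, while in rDC of LN the 13 mitotic members that passed the test all lie on the negative side.

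In mDC of LN, cisplatin moved few members. Stmn1, Mcm3 and Mcm5 rose and none fell, where 6.15% of all genes rose and 4.82% fell. Mcm3 had 138, 134 and 146 CPM with cisplatin, against 106, 108 and 114 CPM with PBS, without overlap (0.31 ± 0.077, adjusted p = 0.00956), and without cisplatin library 2 it was the single member called. The cisplatin effect itself differed between the nodes for 5 members (Top2a, Ccna2, Aurkb, Cenpf and Cdc6), all more positive in TDLN, where 8.43% of all genes differed in that direction. Cenpf differed by 2.23 ± 0.52 (adjusted p = 0.00505) and Top2a, which untangles sister chromatids, by 1.27 ± 0.26 (adjusted p = 0.0018). Without the low-count filter 3 members were more positive and 3 more negative in TDLN, and 3 of the 5 were among these 6. With the deep libraries thinned 2 members differed, both more positive in TDLN, beside 6.63% of all genes in that direction and 6% in the other. Under cisplatin Top2a had 25.2, 26.4 and 29.1 CPM in TDLN, against 14.7, 10.4 and 13.4 CPM in LN. It was higher in each TDLN library (1.06 ± 0.18, adjusted p = 0.000175), and was 1 of the 2 members called higher there, with Ccnb2, and none was lower, beside 7.57% of all genes higher and 7.21% lower. Under PBS, Cenpf had 1.98, 1.58 and 1.93 CPM in TDLN, against 5.97, 3.33 and 7.67 CPM in LN (−1.82 ± 0.37, adjusted p = 0.000771), so its difference in cisplatin effect came with a lower starting level in TDLN. In that comparison 3 members were higher and 4 lower, beside 14.8% and 14.3% of all genes. Without the low-count filter 10 were higher and 2 lower, and with the deep libraries thinned none was higher and 2 were lower, beside 11.6% and 11.3% of all genes.

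In resident dendritic cells the calls lay in LN and were falls. In rDC of LN with cisplatin, 13 of 24 mitotic members fell and none rose, where 7.17% of all genes fell and 10.7% rose, and no S phase member passed the test. The median log2 fold change was −0.59 over the mitotic list and −0.04 over the S phase list, against 0.01 over all genes. Tpx2, which activates Aurka on the spindle, had 9.5, 6.52 and 8.33 CPM with cisplatin, against 17.1, 15 and 15.8 CPM with PBS (−0.89 ± 0.21, adjusted p = 0.00681). Ccna2 had 12.9, 11.6 and 10 CPM with cisplatin, against 21.1, 20.8 and 19.5 CPM with PBS (−0.75 ± 0.14, adjusted p = 0.00145). Neither gene overlapped between the groups. Mki67 was among the 13, with 14, 9.92 and 15.9 CPM with cisplatin, against 21.3, 21.6 and 23.4 CPM with PBS, so in these cells it moved with the list. The PBS libraries were deep, and with them thinned 8 mitotic members fell, beside 5.88% of all genes that fell and 6.89% that rose. As in mDC of TDLN, other traits of the deep libraries cannot be told apart from the treatment. Of the 13, 6 stayed past the threshold whichever library was left out.

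Of the wider cycle lists few genes moved in rDC of LN, near the shares of all genes (7.17% fell and 10.7% rose). Of 13 other kinesin and cytokinesis genes 1 fell (Anln, −1.28 ± 0.23, adjusted p = 0.00112) and 1 rose. Of 24 replication fork genes 2 fell, among them the nuclease Dna2 (−0.82 ± 0.11, adjusted p = 0.000139), and none of 15 E2F, DREAM and B-Myb regulators passed. The D cyclins went opposite ways: Ccnd1 averaged 29.9 ± 3.59 CPM with cisplatin, against 58.1 ± 2.36 CPM with PBS (−0.87 ± 0.11, adjusted p = 4.60e-05), and Ccnd2 averaged 59.4 ± 4.7 CPM, against 30.7 ± 2.99 CPM (SD, n = 3 each; 1.03 ± 0.11, adjusted p = 1.53e-05). The dendritic cell and NK cell marker lists differed between the same groups, while the B cell list overlapped. The 10 dendritic cell genes summed to 3724 to 3927 CPM with cisplatin, against 5488 to 5859 CPM with PBS, the 6 NK cell genes to 98.7 to 110.5 against 38.5 to 42.2 CPM, and the 8 B cell genes to 3285 to 3558 against 3233 to 3740.5 CPM. Their part was not tested. In rDC of TDLN no member passed the test with cisplatin, by edgeR or by DESeq2, and 2 had an unadjusted p under 0.05. There 0.399% of all genes rose and 0.613% fell. The difference in cisplatin effect between the nodes passed for no member by edgeR and for 1 by DESeq2, with 9 at an unadjusted p under 0.05, so the fall in LN is not shown to differ from the values in TDLN.

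Between nodes, rDC differed in few members other than Cenpa. Under PBS, Cenpa and Stmn1 were lower and Mcm2 and Mcm7 higher in TDLN, where 12.1% of all genes were lower and 14.9% higher. Without the low-count filter none was higher and 8 were lower. Under cisplatin 6 members were higher (Mki67, Ccna2, Bub1b, Aurkb, Plk1 and Mcm2) and 2 lower (Cenpa and Cdt1), beside 7.83% and 6.97% of all genes, or 2 higher and 2 lower without the low-count filter. Mki67 had 26.1, 21.6 and 27 CPM in TDLN with cisplatin, against 14, 9.92 and 15.9 CPM in LN, with no overlap (0.88 ± 0.19, adjusted p = 0.00478).

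In the macrophages, MSM of TDLN with PBS had 12 of the 24 mitotic members below 1 CPM on average, and others well above. This group was the lowest of the 8 macrophage groups for 16 of 24 mitotic and 10 of 13 S phase members. Ube2c and Cenpf had no count in any of its 3 libraries, where a count of 0 allows up to 0.377 CPM (3 counts in a library). Mki67 had 0.356, 0.867 and 0.804 CPM and Top2a 0.119, 0.372 and 0.268 CPM, from 1, 3 and 2 counts. Ccnb2, Nusap1 and Cenpe had counts in 1 of the 3 libraries only. Yet Bub1b, the BubR1 checkpoint kinase, had 38.1, 32.8 and 34.9 CPM, Kif23 21.5, 26.3 and 28.3 CPM, Aurkb 22.8, 22.4 and 23.7 CPM and Cenpa 110, 104 and 109.5 CPM in the same libraries. Of the S phase members, Cdc6 had 4, 0 and 1 counts, while Mcm6 had 128, 125 and 127 CPM and Rrm1 134, 125 and 128 CPM. Cenpa alone made up 40.0% to 42.3% of the mitotic sum of this group. The mitotic list was thus not absent as a whole.

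**Figure D5:**
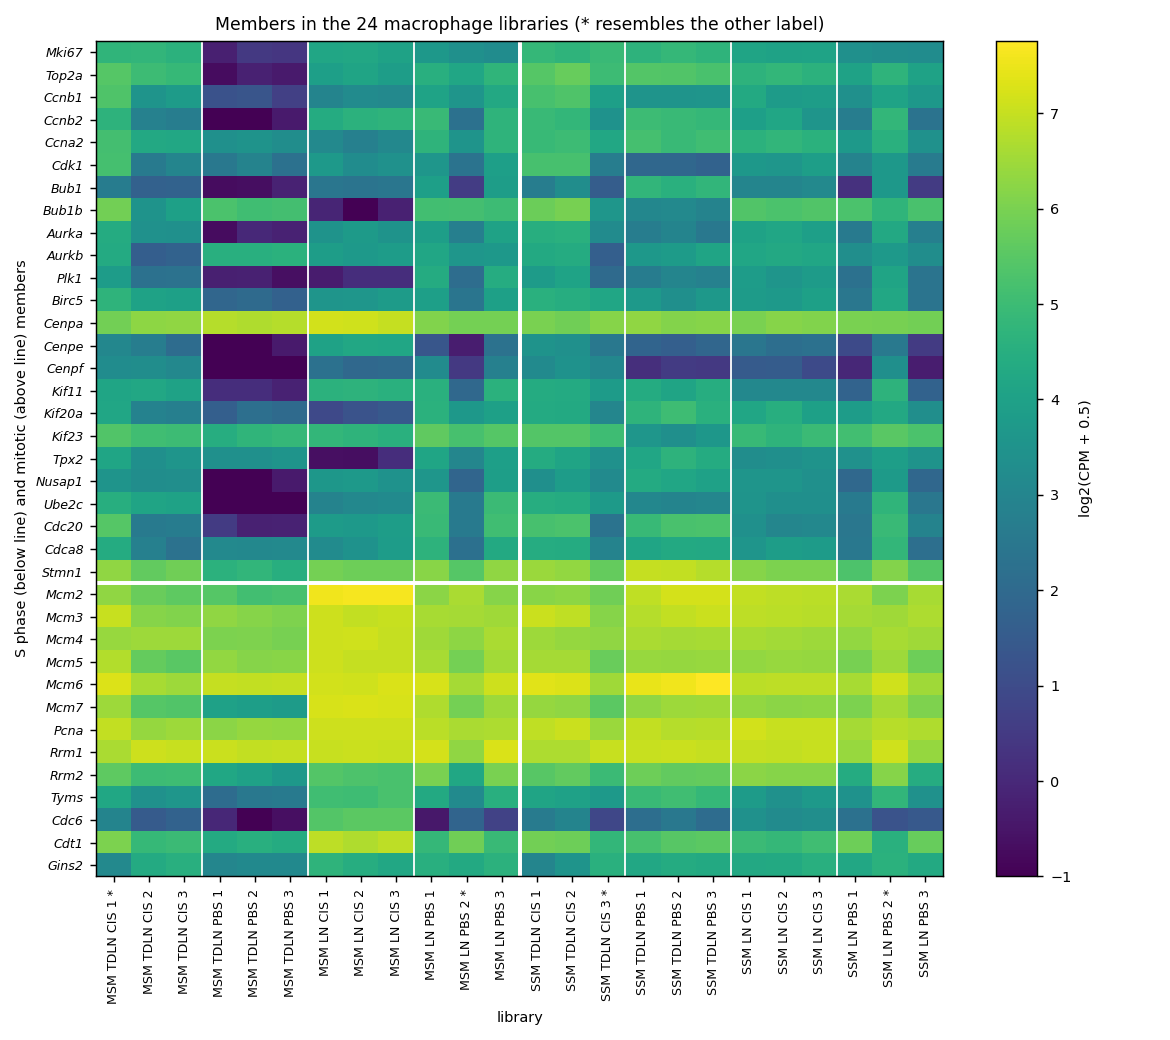
Level of each of the 37 members (rows, mitotic above the white line) in the 24 macrophage libraries (columns, by group), as color on a scale of log2(CPM + 0.5). In the 3 MSM libraries of TDLN with PBS the rows of the 12 mitotic members below 1 CPM are the darkest, while Cenpa (104 CPM or more), Bub1b and Aurkb stay bright, and the libraries labelled MSM of LN with cisplatin are dark for Bub1b, Plk1 and Tpx2 and bright for Cdc6 and Cdt1.

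Against these libraries, cisplatin came with more of most members in MSM of TDLN. Of the mitotic members 18 rose and 1 (Cenpa) fell, and 8 S phase members rose and none fell, where 25.6% of all genes rose and 11.5% fell. Without the 4 libraries that resembled the other label, 18 mitotic members rose and 3 fell, and 8 S phase members rose and 2 fell, beside 41.6% and 27.4% of all genes. With each library left out in turn, 15 of the 18 mitotic rises and the fall of Cenpa stayed past the threshold every time. Of the 8 S phase rises only 2 did (Mcm7 and Cdc6). Top2a had 43, 31.4 and 28.6 CPM with cisplatin, against under 0.4 CPM in each PBS library (7.03 ± 0.36, adjusted p = 1.97e-06). Mki67 was among the 18, at 26.3, 26.9 and 24.3 CPM with cisplatin. Ube2c was at least 48.3-fold higher and Cenpf at least 23.3-fold higher than 3 counts per library would give in the PBS group. Cenpa had 59.5, 77.2 and 78.6 CPM with cisplatin, below the PBS level in each library (−0.57 ± 0.13, adjusted p = 0.00642). Mcm7 had 89, 43.3 and 41.2 CPM with cisplatin, against 15.8, 14.5 and 13.7 CPM with PBS (2.0 ± 0.30, adjusted p = 0.000653). The highest of the 3 was library 1, which resembled SSM, and all 3 were above every PBS library. Cdc6 had 7.28, 2.33 and 2.87 CPM with cisplatin (4.26 ± 0.95, adjusted p = 0.00608), and its log2 value was 3.56 without the 4 libraries, 5.68 without PBS library 1 and 3.65 without PBS library 2. Of the wider lists, 10 of 13 other kinesin and cytokinesis genes and 8 of 15 E2F, DREAM and B-Myb regulators rose, and none of either fell. The sorts differed in their markers: 12 macrophage genes summed to 7968 to 12669 CPM with cisplatin, against 22567 to 22965 CPM with PBS, 8 neutrophil genes to 619.7 to 5476 against 7608 to 7827 CPM, 8 mast cell and basophil genes to 1879.9 to 3374 against 50.1 to 59.8 CPM, and 8 B cell genes to 641 to 4703 against 456 to 487 CPM. Their part was not tested.

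In LN, the libraries labelled MSM with cisplatin had more of the S phase members and lacked several mitotic ones. Of the S phase members 6 rose (Mcm2, Mcm4, Mcm7, Tyms, Cdc6 and Cdt1) and none fell, and of the mitotic members 3 rose and 6 fell, where 16.6% of all genes rose and 26.8% fell. As shares of the list, the mitotic counts with all libraries thus lay near those of all genes. With the 4 libraries left out, 9 S phase members rose and 2 fell, and 3 mitotic members rose and 14 fell, beside 33.4% and 40.7% of all genes. Bub1b had 3, 0 and 3 counts in the cisplatin libraries (0.429, 0 and 0.367 CPM), against 34.4, 34.5 and 31.3 CPM with PBS (−6.93 ± 0.84, adjusted p = 0.000148). Tpx2 had 0.143, 0.123 and 0.611 CPM with cisplatin, against 17.3, 7.6 and 15 CPM with PBS (−5.42 ± 0.57, adjusted p = 6.57e-05). Plk1 had 0.286, 0.613 and 0.611 CPM with cisplatin, against 20.3, 3.85 and 21.2 CPM with PBS (−4.86 ± 0.80, adjusted p = 0.00102). The lowest PBS value of Tpx2 and of Plk1 was that of library 2, which resembled SSM, and no PBS library overlapped the cisplatin group. Kif20a, a kinesin of late mitosis, and Ccna2 were also lower, by −3.22 ± 0.48 (adjusted p = 0.000536) and −1.45 ± 0.35 (adjusted p = 0.00835). In contrast Cenpa had 144, 138 and 128 CPM with cisplatin, against 68.2, 60.9 and 59.8 CPM with PBS (1.11 ± 0.13, adjusted p = 0.000113), and Cenpe, a motor that moves chromosomes, had 15.9, 18.4 and 17.6 CPM, against 2.06, 0.321 and 4.45 CPM. Cenpe was higher in each cisplatin library (2.92 ± 0.80, adjusted p = 0.0144), or by 3.85 without PBS library 3.

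Of the 6 S phase rises in the same libraries, 4 stayed past the threshold whichever library was left out (Mcm2, Mcm4, Cdc6 and Cdt1). Cdc6 had 42.1, 46.7 and 46.8 CPM with cisplatin, against 0.242, 3.0 and 1.14 CPM with PBS (4.92 ± 0.81, adjusted p = 0.000991, or 6.02 without the 4 libraries). Cdt1 had 119, 104 and 117 CPM with cisplatin, against 27.8, 57.2 and 30 CPM with PBS (1.56 ± 0.34, adjusted p = 0.00448). The PBS values of Cdt1 were highest in library 2, and all were below the cisplatin group. Mcm2 had 192, 197 and 201 CPM with cisplatin, against 74.5, 100.3 and 71.4 CPM with PBS (1.26 ± 0.20, adjusted p = 0.000778). Since these cisplatin libraries had little of the macrophage genes and held 8 B cell genes at 4359 to 4483 CPM in sum, against 488 to 3727 CPM with PBS, the comparison is one between libraries with these labels, and the drug and the cells sorted cannot be told apart.

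The effect of cisplatin in MSM differed between the nodes for 22 members, 19 mitotic members and 2 S phase members being more positive in TDLN and Cenpa more negative, where 31.1% and 9.64% of all genes differed in these directions. The LN libraries with cisplatin are those that went against a macrophage label. In this difference, and in TDLN against LN with cisplatin, the node, the drug and the cells sorted thus cannot be told apart. The calls of the 19 mitotic members and of Cenpa stayed past the threshold whichever library was left out, and those of the 2 S phase members did not. When the 4 libraries were left out, 20 mitotic and 4 S phase members were more positive in TDLN, and 2 mitotic and 6 S phase members more negative, beside 43% and 22.1% of all genes. The difference was 7.57 ± 0.43 (adjusted p = 3.49e-06) for Top2a, 9.51 ± 1.15 (adjusted p = 0.000139) for Plk1 and −1.68 ± 0.18 (adjusted p = 7.15e-05) for Cenpa. Under PBS, MSM of TDLN had less of 18 mitotic members (1, Cenpa, was higher) and of 8 S phase members than MSM of LN, where 26.6% of all genes were lower and 11.6% higher. Once the 4 libraries were dropped, 21 mitotic members were lower and 2 higher, and 12 S phase members were lower, beside 40.7% of all genes lower and 29% higher. Top2a differed by −6.4 ± 0.35 (adjusted p = 2.21e-06), and Ube2c was at least 59.7-fold and Cenpf at least 14.5-fold lower in TDLN. Mcm7 (−2.54 ± 0.30, adjusted p = 0.000175), Tyms (−1.81 ± 0.36, adjusted p = 0.00332), Rrm2 (−1.68 ± 0.40, adjusted p = 0.00843) and Mcm2 (−1.14 ± 0.20, adjusted p = 0.00154) were lower and Cenpa was higher (0.76 ± 0.13, adjusted p = 0.0014). Under cisplatin 8 mitotic members were higher and 1 (Cenpa) lower in TDLN, and 8 S phase members were lower, where 26.7% of all genes were higher and 16.6% lower. After removal of the 4 libraries, 11 mitotic members were higher and 9 lower, and 11 S phase members were lower, beside 41.6% and 32.8% of all genes. Bub1b was higher in TDLN by 6.71 ± 0.83 (adjusted p = 0.000184), or 5.58 without the 4 libraries, Tpx2 by 5.36 ± 0.57 (adjusted p = 7.03e-05) and Plk1 by 3.85 ± 0.78 (adjusted p = 0.00318), or 3.07 without them. Mcm2 (−1.71 ± 0.20, adjusted p = 0.000125), Cdt1 (−1.45 ± 0.34, adjusted p = 0.00633), Cdc6 (−3.43 ± 0.74, adjusted p = 0.00438) and Cenpa (−0.93 ± 0.13, adjusted p = 0.000365) were lower. These comparisons share control groups with those of cisplatin, so they are not independent of them.

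In subcapsular sinus macrophages the calls depended on the 2 libraries that resembled MSM. With cisplatin in TDLN, 6 mitotic members rose (Ccnb1, Cdk1, Bub1b, Aurka, Cenpf and Kif23), and 1 S phase member (Mcm2) fell, where 13% of all genes rose and 9.95% fell. Without the 4 libraries 12 mitotic members rose and 5 fell, and 3 S phase members rose and 6 fell, beside 34.6% and 36.5% of all genes. Cdk1, the kinase of mitotic entry, had 36.9, 36.9 and 6.0 CPM with cisplatin, against 3.26, 3.28 and 2.84 CPM with PBS (3.07 ± 0.59, adjusted p = 0.0061). Bub1b had 55.1, 62.3 and 11.8 CPM with cisplatin, against 7.89, 8.3 and 7.04 CPM with PBS (2.46 ± 0.47, adjusted p = 0.00634). In both genes the low cisplatin value is library 3, which resembled MSM, and it too was above the PBS group. Kif23 had 42.3, 41.8 and 32.6 CPM with cisplatin, against 11.8, 9.73 and 12 CPM with PBS (1.8 ± 0.17, adjusted p = 0.000274), and Mcm2 had 74, 76.1 and 57.1 CPM, against 122, 146 and 146 CPM (−1.0 ± 0.17, adjusted p = 0.00364), with no overlap in either gene. Over 8 mast cell and basophil genes the sums were 1882 to 3407 CPM with cisplatin, against 47.4 to 69.2 CPM with PBS, and their part was not tested.

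In SSM of LN with cisplatin, 1 member (Mki67) rose with all libraries and none fell, where 5.85% of all genes rose and 7.42% fell. It had 16.6, 16.2 and 16.4 CPM with cisplatin, against 10.1, 9.41 and 9.14 CPM with PBS (0.76 ± 0.14, adjusted p = 0.00688). With the 4 libraries left out, 20 mitotic members rose and 1 fell, and 9 S phase members rose and 1 fell, beside 30.1% and 29.9% of all genes, so the single call with all libraries says little of the rest of the module. Its level in library 2 of LN with PBS, which resembled MSM, lay between those of the other two. Mki67 was also higher in SSM of TDLN than of LN, by 1.45 ± 0.14 (adjusted p = 0.000228) with PBS and by 0.78 ± 0.13 (adjusted p = 0.00431) with cisplatin. With PBS 5 mitotic members (Mki67, Top2a, Ccna2, Tpx2 and Stmn1) and 2 S phase members (Mcm2 and Mcm6) were higher in TDLN and 2 mitotic members (Bub1b and Kif23) lower, where 7.63% of all genes were higher and 12% lower. When the 4 libraries were left out, 18 mitotic and 10 S phase members were higher and 3 mitotic and 1 S phase member lower, beside 34% and 33.8% of all genes. Top2a differed by 1.06 ± 0.22 (adjusted p = 0.0103), Stmn1 by 1.25 ± 0.24 (adjusted p = 0.00724) and Kif23 by −1.82 ± 0.17 (adjusted p = 0.000228). With cisplatin Mki67 and Top2a were higher and Mcm2 lower, beside 8.79% and 8.65% of all genes, or 1 higher and 1 lower without the low-count filter. Once the 4 libraries were dropped, 18 mitotic and 4 S phase members were higher and 5 S phase members lower, beside 30.1% and 31.8% of all genes. The cisplatin effect differed between the nodes for 6 members, more positive in TDLN for Cdk1, Bub1b and Kif23 (2.28 ± 0.24, adjusted p = 0.000404) and more negative for Mki67, Stmn1 and Mcm2 (−1.43 ± 0.24, adjusted p = 0.00309), beside 13.4% and 8.21% of all genes. After removal of the 4 libraries, the split turned: 4 mitotic members and 1 S phase member were more positive in TDLN, and 12 mitotic and 11 S phase members more negative, beside 33.6% and 32.2% of all genes.

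Medullary and subcapsular macrophages were compared in each setting. In TDLN with PBS, 18 mitotic members were lower in MSM and 3 (Bub1b, Cenpa and Kif23) higher, and 11 of 13 S phase members were lower, where 26.4% of all genes were lower and 14.4% higher. Without the 4 libraries 19 mitotic members were lower and 5 higher, and 12 S phase members were lower, beside 39% and 28.1% of all genes. Top2a had 0.119, 0.372 and 0.268 CPM in MSM, against 41.7, 41.1 and 37.7 CPM in SSM (−7.24 ± 0.34, adjusted p = 1.58e-11). Ube2c was at least 19.9-fold and Cenpf at least 2.13-fold lower in MSM. Mcm2 had 42.9, 34 and 36.2 CPM in MSM, against 122, 146 and 146 CPM in SSM (−1.87 ± 0.20, adjusted p = 4.67e-07). Mcm7 (−2.55 ± 0.28, adjusted p = 7.91e-07), Tyms (−2.64 ± 0.37, adjusted p = 1.53e-05), Rrm2 (−1.78 ± 0.44, adjusted p = 0.00332) and Cdc6 (−4.3 ± 0.87, adjusted p = 0.0007) were lower too. The 3 members that were higher in MSM were so by 2.18 ± 0.56 (adjusted p = 0.0047) for Bub1b, 1.18 ± 0.17 (adjusted p = 1.68e-05) for Kif23 and 0.56 ± 0.11 (adjusted p = 0.000592) for Cenpa. These MSM held 8 neutrophil genes at 7608 to 7827 CPM in sum, against 123 to 154 CPM in SSM, and the part of those cells was not tested.

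In LN with cisplatin, 3 mitotic members were higher (Cenpa, Cenpe and Kif11) and 6 lower in the libraries labelled MSM, and 6 S phase members were higher, where 20.7% of all genes were higher and 29% lower. With the 4 libraries left out, 6 mitotic members were higher and 11 lower, and 9 S phase members were higher and 1 lower, beside 33.1% and 39.3% of all genes. Bub1b had 0.429, 0 and 0.367 CPM in them, against 41.4, 38.4 and 41.7 CPM in SSM (−7.21 ± 0.81, adjusted p = 7.62e-07). Tpx2 (−5.0 ± 0.47, adjusted p = 8.58e-08), Plk1 (−4.62 ± 0.79, adjusted p = 0.000111), Kif20a (−3.32 ± 0.45, adjusted p = 9.21e-06) and Ccna2 (−1.7 ± 0.34, adjusted p = 0.00043) were lower as well. Cdt1 had 119, 104 and 117 CPM, against 30.9, 28.4 and 32.9 CPM in SSM (1.88 ± 0.36, adjusted p = 0.000342), and Tyms, Cdc6, Mcm7 and Mcm2 were higher by 1.5 ± 0.35 (adjusted p = 0.00192), 2.23 ± 0.66 (adjusted p = 0.00939), 0.96 ± 0.26 (adjusted p = 0.00587) and 0.72 ± 0.19 (adjusted p = 0.00439). Cenpa differed by 1.01 ± 0.11 (adjusted p = 6.39e-07). In LN with PBS and in TDLN with cisplatin no member passed with all libraries, by edgeR or by DESeq2, and none had an unadjusted p under 0.05. Both settings hold the libraries that resembled the other label, and without these 4, the members that passed went opposite ways. Of these members 27 were higher in MSM and 3 lower in LN with PBS, beside 28.7% and 33.3% of all genes. In TDLN with cisplatin 3 were higher in MSM and 29 lower, beside 33.7% and 29.6% of all genes.

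Over the 8 group means of the macrophages, members of a list moved together more than members of different lists. The median correlation between pairs was 0.569 within the mitotic list, 0.724 within the S phase list and 0.343 between the lists in macrophages, or 0.526, 0.597 and 0.356 without the 4 libraries. In dendritic cells it was 0.771, 0.645 and 0.658, so there the S phase members moved together no more than members of different lists. These describe 8 groups that share libraries, and carry no p-value. Cenpa was the mitotic member that ran most against its list in macrophages (r = −0.648, or −0.566 without the 4 libraries), while in dendritic cells Mki67 was the only one to do so. Bub1b (−0.173, or −0.101 without the 4) and Kif23 (−0.128, or −0.014) had weaker negative values in macrophages. For Aurkb r was −0.510 with all libraries and 0.117 without the 4. Several members overlap a protein-coding gene on the other strand (Ccna2 with Exosc9, Kif20a with Cdc23, Nusap1 with Oip5, Ube2c with Tnnc2, Cdc20 with Elovl1, Cdca8 with 9930104L06Rik, Mcm7 with Cops6 and Ap4m1, and Gins2 with Gse1 and Gm20388). The kit keeps strand, but whether the counting used it was not given in the sources used here, so reads of these neighbours may be among their counts. Cdt1 overlaps the protein-coding Gm20388 on its own strand, where strand cannot tell their reads apart.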

How the data were processed

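Polyadenylated RNA of sorted node cells was sequenced with a stranded mRNA kit, per the labels' protocols. Per the submitters' processing notes, the tools were STAR, RSEM 1.3.0 and DESeq2 1.38.3 on GRCm38. The deposited expected counts (RSEM estimates, given as whole numbers) were used for all tests. The authors' deposited TPM of the dendritic cells were used for levels between genes, and the authors' deposited macrophage TPM, whose decimals are missing and which were therefore recorded as a score, were not used. In the dendritic cell tables the columns named Tumor were taken as TDLN and those named WT as LN, by elimination.

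Genes were kept by edgeR's filterByExpr over groups and scaled by TMM. One quasi-likelihood model (edgeR 4.0.16, R 4.3.3) was fitted per cell type (12 libraries, 4 groups) and one per pair of cell types (24 libraries, 8 groups), giving 28 comparisons. P-values were adjusted by Benjamini-Hochberg over all genes of a model, with a limit of 0.05. The standard error is the absolute log2 fold change over the root of F. CPM are counts scaled to a common library size after TMM over the 24 libraries of a table, and sums are of CPM. The steps were tested on simulated data.

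Alternatives were no filter on low counts, DESeq2 1.42.0, edgeR with DESeq2's size factors, a replicate-number block, each library left out, the 4 macrophage libraries left out, and dendritic cell libraries over 5000000 counts thinned to 3000000. Fold changes were named for at most 5 called members per list and direction and 2 called genes per pathway list, by largest change, with a mean of at least 1 CPM over the compared libraries. After the alternatives had been run, they were kept for genes that stayed called in every one. The members and lists were chosen with earlier results of these data known.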

Additional observations from a re-analysis of the deposited data

Results flagged for a closer look

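The effect of cisplatin differed between tumor-draining and other nodes, by the test of that difference itself, for 22 members in medullary sinus macrophages, for 6 members in subcapsular sinus macrophages and for 5 members in migratory dendritic cells. Of all genes, 31.1% were more positive and 9.64% more negative in TDLN in MSM, 13.4% and 8.21% in SSM, and 8.43% and 7.17% in mDC. Taken over both directions, the SSM and mDC counts, as shares of the 37 members, did not exceed those of all genes. In the medullary sinus macrophages 20 of these 22 are mitotic members, and the LN libraries with cisplatin are those that went against the macrophage label.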

How the results depend on the processing

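The 133 fold changes named for a gene were chosen as calls kept under every alternative run, so that they are kept is no evidence of stability. Counts of members called moved as follows. With each library left out in turn the count ran from 20 to 24 (28 with all) for cisplatin in mDC of TDLN, 1 to 3 (3) in mDC of LN, 3 to 6 (5) for their difference, 2 to 5 (7) for TDLN against LN with PBS and 1 to 2 (2) with cisplatin in mDC. In rDC it ran from 8 to 11 (13) for cisplatin in LN, 0 to 8 (0) for the difference between nodes, 2 to 5 (4) for TDLN against LN with PBS and 3 to 12 (8) with cisplatin. In MSM it ran from 19 to 27 (27) for cisplatin in TDLN, 12 to 19 (15) in LN, 20 to 28 (22) for their difference, 23 to 27 (27) for TDLN against LN with PBS and 13 to 19 (17) with cisplatin. In SSM it ran from 4 to 9 (7), 1 to 16 (1), 2 to 15 (6), 4 to 21 (9) and 1 to 11 (3) for the same comparisons. For mDC against rDC it stayed within 14 and 32, and for MSM against SSM within 12 and 32 where any member was called. Without the 4 libraries that resembled the other label, 28 members were called for cisplatin in MSM of LN and 31 for TDLN against LN with cisplatin in MSM. In SSM 26 were called for cisplatin in TDLN, 31 in LN, 28 for their difference, 32 for TDLN against LN with PBS and 27 with cisplatin. For MSM against SSM 27 were called in LN with cisplatin, 30 in LN with PBS and 32 in TDLN with cisplatin. Without the low-count filter, which moved the median of all genes by −0.275 (mDC of TDLN) and −0.299 (rDC of LN) on the log2 scale for cisplatin, by 0.355 (mDC) and −0.262 (rDC) for TDLN against LN with PBS, by −0.324 (mDC) and 0.253 (rDC) for the difference between nodes, and by 0.112 to 0.161 in TDLN and −0.431 in LN with PBS for mDC against rDC, 16 members were called for cisplatin in mDC of TDLN, 1 and 12 (10 higher and 2 lower) for TDLN against LN in mDC with cisplatin and with PBS, 29 for cisplatin in rDC of LN, 7 for its difference between nodes, and 4 and 8 (all lower) for TDLN against LN in rDC with cisplatin and with PBS. Mki67 in mDC of TDLN was then −0.81. DESeq2's size factors moved the median by −0.127 for the MSM difference between nodes and 0.135 for MSM against SSM in LN with cisplatin. DESeq2 called 4 members for TDLN against LN with PBS in mDC, 1 for the rDC difference between nodes, 3 and 11 for cisplatin in SSM of LN and of TDLN, and 5 for TDLN against LN with cisplatin in SSM. With the deep libraries thinned, 2 members were called for the mDC difference between nodes, 2 (both lower) for TDLN against LN with PBS in mDC and 8 for cisplatin in rDC of LN. Within a cell type, the replicate numbers did not pair the libraries (same-number correlations above 0.1 in 2 to 4 of 18 pairs per cell type, and in all 3 pairs only for SSM of LN with cisplatin and of TDLN with PBS, which no comparison sets directly against each other). Pairing between cell types was not examined. With the replicate block 5 members were called for TDLN against LN with cisplatin in rDC, and no other count moved past 1.5 times. The cause of these changes was not tested. Depth limits the low members in the 18 shallow dendritic cell libraries.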
